A study of Homo sapiens with 6 samples.

Results

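The genes described here are 43 listed genes of the hypoxia pathway and of glycolysis: the subunits of the hypoxia-inducible factors (HIFs), the enzymes and the ligase that sense oxygen, the glucose and lactate transporters, the glycolytic enzymes, the enzymes that decide the fate of pyruvate, and genes known to be induced in hypoxia. Their mRNA was measured in OVCA432, an established cell line of high grade serous ovarian cancer, on Affymetrix Human Genome U133 Plus 2.0 arrays. The members were chosen by name, with earlier results of these data known. Shares of all genes set beside their counts therefore describe the list and do not test it. Each member was read from a probe set (a group of short oligonucleotides on the array that reports 1 transcript) whose annotation holds that symbol alone. The brightest was taken where a gene had several. Of the 43 listed genes, 40 had such a probe set and 38 were bright enough to be tested, of 12216 genes tested in all.

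Both groups consisted of OVCA432 cells grown with 10% fetal bovine serum and then kept without serum for 24 hours. In the MFAP5 group (3 samples), recombinant human MFAP5 was then added at 200 ng/mL. MFAP5 is a secreted microfibril-associated glycoprotein of the extracellular matrix, and the cells were exposed to it for 48 hours in fresh medium without serum. The control group (3 samples) was given the solvent alone in the same medium for the same time. Serum withdrawal was therefore shared by both groups, the results concern 1 cell line, and the oxygen level in the incubator is not given in the sources used here. In such bulk samples fewer cells that express a gene and less of its RNA per cell cannot be told apart. All 10 markers of epithelial ovarian carcinoma checked (among them PAX8, WT1, EPCAM and KRT7) lay above the Bacillus spike-in probe sets on all 6 arrays, and 6 of them were called, 5 higher and 1 lower. Of 12 markers of other cell types with a probe set, 3 (VWF, CDH5 and COL1A1) passed the brightness filter and 0 were called (limma, also 0 at an unadjusted p below 0.05). Against the Bacillus probe sets, the fibroblast markers COL1A1 (152 to 192) and COL1A2 (36.4 to 74.1) also lay above on all 6 arrays. VWF and CDH5 did so on all 3 MFAP5 arrays and on 1 and 2 control arrays. The other markers, among them the leukocyte marker PTPRC (signals of 4.24 to 48.8), did not on at least 1 array of each group.

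HIF is a dimer of an oxygen-regulated alpha subunit and a constant beta subunit. In the presence of oxygen, prolyl hydroxylases mark the alpha subunit and the VHL ubiquitin ligase has it degraded, so the best known control of HIF acts on the protein, which arrays do not measure. When oxygen is low the dimer binds a short core motif in DNA and raises transcription of genes for glucose uptake, glycolysis, lactate formation and mitophagy, and ovarian carcinoma cells, like many tumour cells, also run glycolysis when oxygen is present.

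The members' signals were more often higher than lower with MFAP5. Of the 38 tested, 20 rose, 0 fell and 18 were not called (limma, Benjamini-Hochberg adjusted p below 0.05), whereas 14.6% of all 12216 genes tested were called higher and 15.3% lower. At an unadjusted p below 0.05, 26 members were higher and 1 lower. The share of all genes at that looser threshold was not counted, so these counts have no background beside them. Of the 38 log2 differences (MFAP5 minus control), 33 were positive and 5 negative, and their median was 0.28 with a range from -0.18 to 1.49, beside a median of -0.01 over all genes tested. For 26 members the 3 MFAP5 signals all lay above the 3 control signals and for 1 member (PFKM) all below, against 22.3% and 23.6% of all genes. By role, the called members were 1 of 3 HIF subunits, 0 of 4 oxygen sensing genes, 1 of 1 glucose transporter, 4 of 8 enzymes from hexokinase to aldolase, 2 of 3 PFKFB enzymes, 2 of 7 enzymes from triosephosphate isomerase to pyruvate kinase, 3 of 4 enzymes acting on pyruvate or on its oxidation, and 7 of 8 other hypoxia-induced genes.

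The count of 20 depended on the scaling of the arrays and on single arrays. With each array centred on its median signal, which moved the median of all genes to -0.15, 12 members were called higher and 2 lower (GPI and PFKM), beside 9.15% and 28.2% of all genes. With the arrays centred on the hybridisation controls 12 were called higher, beside 7.49% of all genes. The count was 13 without control replicate 1, without MFAP5 replicate 2 or without MFAP5 replicate 3. In these settings 11.4%, 10.6% and 12% of all genes were called higher, so calls were lost among all genes as well. Centring shifts all genes of an array alike, so the distance of 0.29 between the members' median and that of all genes is the same by construction.

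**Figure D1:**
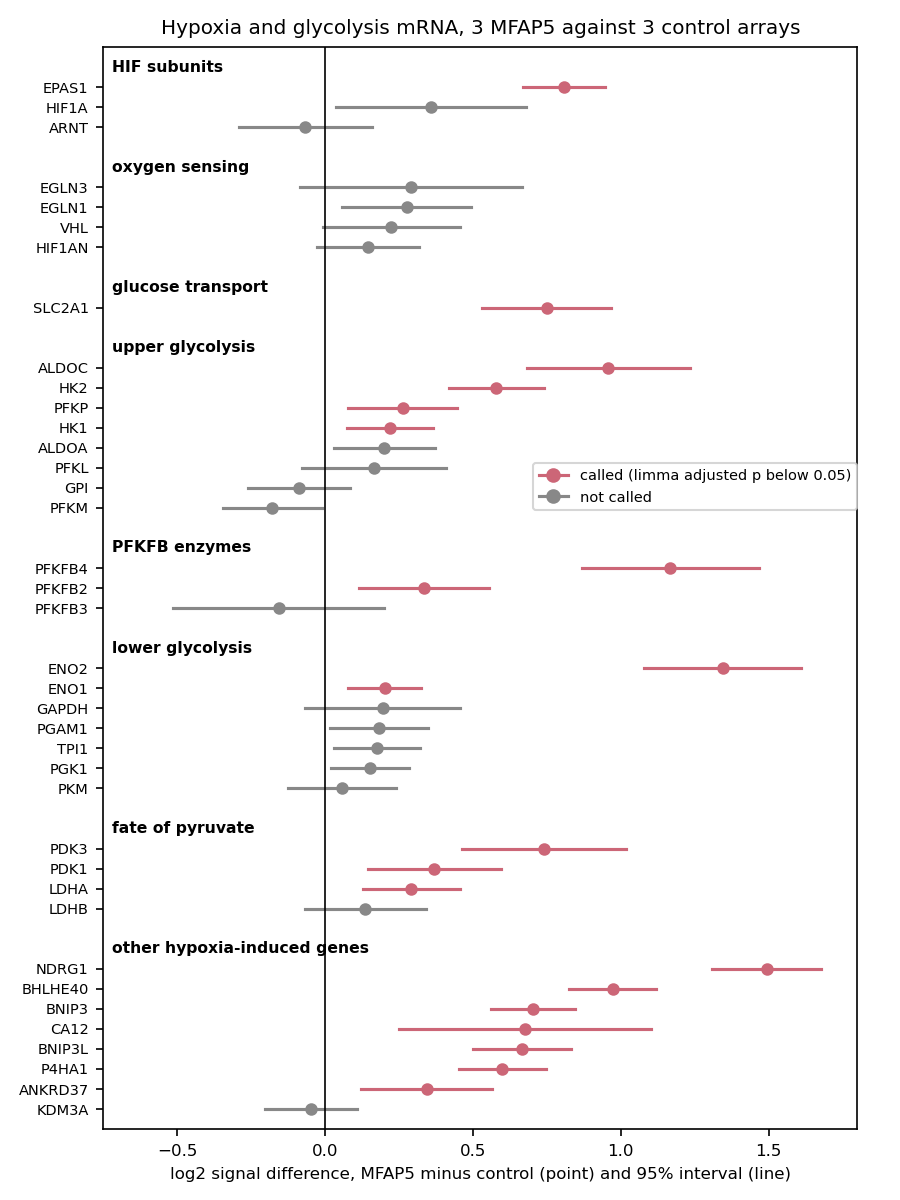
Log2 signal difference (MFAP5 minus control, x axis) of the 38 tested members, grouped by role; points are limma estimates from 3 arrays against 3 and lines their 95% intervals. Red marks the 20 called members, all to the right of 0, from ENO1 at 0.20 to NDRG1 at 1.49; grey marks the 18 not called.

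**Figure D2:**
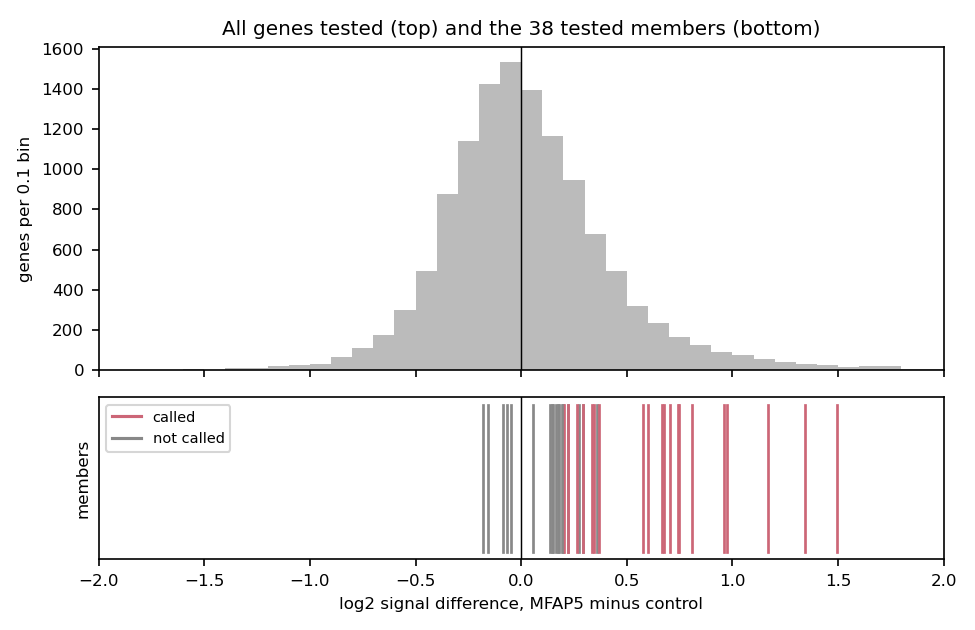
Number of genes per bin of log2 difference (MFAP5 minus control, x axis) over the 12216 genes tested (top), with the most extreme genes beyond the axis not drawn, and the 38 tested members as lines (bottom; red called, grey not called). The members' median lies at 0.28 and that of all genes at -0.01.

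Set against the spread of all genes, 21 members (55.3%) exceeded the 75% quantile of all log2 differences (0.23), 13 (34.2%) the 90% quantile (0.52) and 6 (15.8%) the 95% quantile (0.77). Of the 20 called members, 12 changed by 1.5-fold or more and 8 by less. For 10 of the 20 the call held in all 15 alternative settings: EPAS1, SLC2A1, PFKFB4, ALDOC, ENO2, NDRG1, BNIP3, BNIP3L, P4HA1 and BHLHE40. For HK1, PFKP, PFKFB2, ENO1, LDHA, PDK1, CA12 and ANKRD37, the call was lost under both centrings and without at least 1 of the arrays, as given beside each below.

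The promoters of the members were searched for ACGTG, a form of the core that HIF binds and called the core below. Both strands were read, in the RefSeq windows (GRCh38.p14) from 250 bases before to 50 bases after each annotated start. Other forms of the core were not searched, so a window without a match may still hold one. The run CACGTG counts on each strand, and its 2 matches overlap. These stretches were picked because they carry the core in the promoters of members that rose (ENO2, PDK3, BNIP3, P4HA1, BHLHE40) and, for comparison, in those of abundant enzymes that were not called (GAPDH, PGK1). Other called members with the core, among them ALDOC, HK2 and LDHA, are not printed. The called members EPAS1, SLC2A1, HK1, PFKFB4, ENO1 and CA12 had no match. NDRG1, which had the largest rise, BNIP3L and PFKFB2 are not in the promoter table. Capitals mark the core on either strand, and each line reads 5′ to 3′ on the gene's strand.
ENO2, chr12:6914447-6914481, plus strand: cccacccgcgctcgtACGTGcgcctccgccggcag
PDK3, chrX:24465210-24465244, plus strand: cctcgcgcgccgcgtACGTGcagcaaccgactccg
BNIP3, chr10:131982037-131982072, minus strand: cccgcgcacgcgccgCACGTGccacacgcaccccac
P4HA1, chr10:73096933-73096967, minus strand: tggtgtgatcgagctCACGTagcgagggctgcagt
BHLHE40, chr3:4979187-4979307, plus strand: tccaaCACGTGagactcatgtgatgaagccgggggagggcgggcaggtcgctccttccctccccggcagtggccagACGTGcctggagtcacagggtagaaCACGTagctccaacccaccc
GAPDH, chr12:6535168-6535203, plus strand: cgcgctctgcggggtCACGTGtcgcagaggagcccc
PGK1, chrX:78104031-78104084, plus strand: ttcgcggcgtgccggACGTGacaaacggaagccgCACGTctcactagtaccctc

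The core stood in 24 of 60 promoter windows of the measured members, 40.0%, and in 7518 of 35116 windows of all genes, 21.4%. Counted by gene, 20 of the 35 measured members found in the promoter table had it in at least 1 window (57.1%), against 24.9% of all genes. Here all genes are the 27305 of the promoter table, not the genes tested on the arrays. The 35 members had 60 windows and the 27305 genes 35116, so members had more windows per gene in which to hold a match. Among the windows of called members the share was 41.4% (12 of 29), and among those of members that were tested and not called it was 37.9% (11 of 29). Counted by gene, the shares were 64.7% (11 of 17) of called members and 47.1% (8 of 17) of members not called, a difference that was not tested. A match describes letters in this window and not binding.

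**Figure D3:**
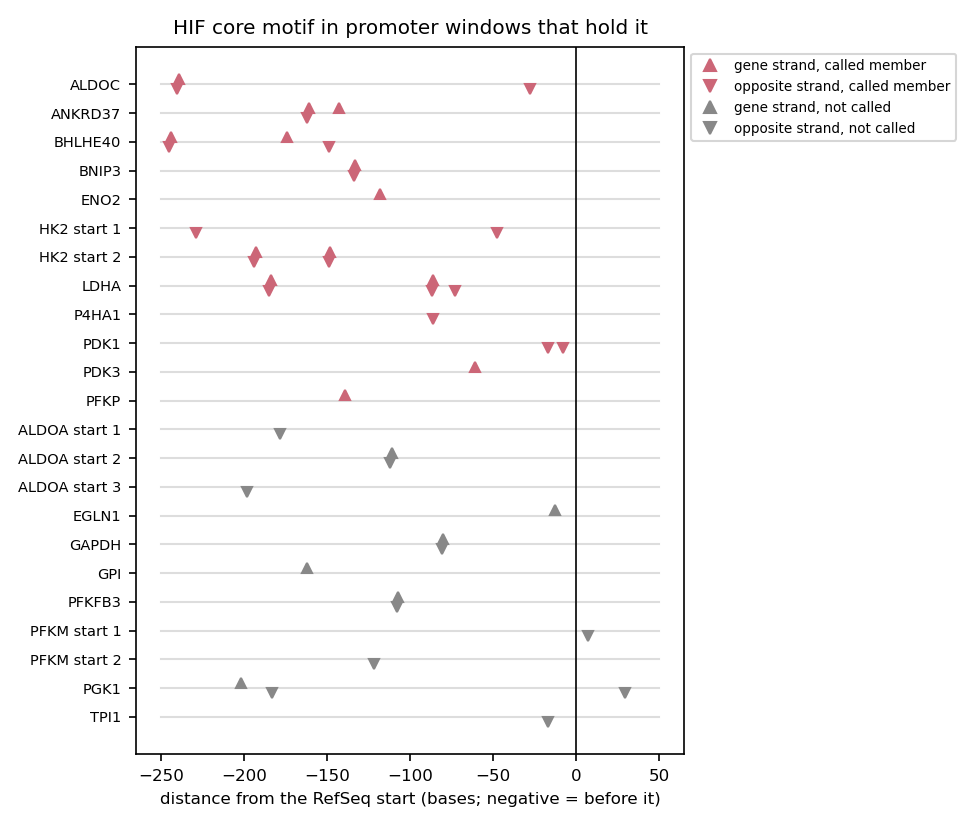
Position of the core ACGTG relative to the RefSeq start (x axis, bases, negative before the start) in the promoter windows of tested members that hold it; upward triangles lie on the gene's strand, downward triangles on the other, and numbered starts are those with a match. Red marks 12 windows of called members and grey 11 windows of members not called.

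Signals below are MAS5 signals, given for control replicates 1, 2 and 3 and then for MFAP5 replicates 1, 2 and 3. Log2 differences are MFAP5 minus control with the standard error of the limma fit over 3 samples a group, and folds are their antilogs. A signal of one probe set is not compared with that of another, since probe sets differ in how strongly they bind.

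Of the HIF subunits only EPAS1 was called higher. EPAS1, which encodes the alpha subunit of HIF-2, had signals of 2867, 2645 and 2709.8 in the controls and of 4699, 4843 and 4855 with MFAP5. The groups did not overlap, and within each the signals lay close together. The log2 difference was 0.81 ± 0.06, a 1.75-fold rise (adjusted p = 1.54e-05). A second tested EPAS1 probe set, with signals of 46.4 to 90.1, had a log2 difference of 0.32 ± 0.32 and was not called.

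HIF1A, which encodes the alpha subunit of HIF-1, had signals of 8213, 8894 and 11880.2 in the controls and of 10106, 12953 and 13923 with MFAP5. Control replicate 3 lay above MFAP5 replicate 1, so the groups overlapped, and both groups spread widely. The log2 difference of 0.36 ± 0.14 (95% interval 0.04 to 0.68) was not called at an adjusted p of 0.0995 in limma. It was called in 3 of the 15 alternative settings. Among these were the fits without control replicate 3 (0.52, adjusted p = 0.0118) and without MFAP5 replicate 1 (0.49, adjusted p = 0.0302), the 2 arrays that overlapped. Across the 15 settings the log2 difference was as low as 0.22 and the limma adjusted p as high as 0.312.

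The log2 signal difference between EPAS1 and HIF1A was -1.80 ± 0.31 (SD, n = 3) in the controls and -1.35 ± 0.22 with MFAP5, and its values overlapped between the groups (exact permutation test, two-sided p = 0.2, adjusted p = 0.289 over 13 such pairs). The smallest p that this test can give is 0.1, so it cannot separate the responses of the 2 alpha subunits. ARNT, the beta subunit, had signals of 696, 801 and 855 in the controls and of 765, 763 and 712 with MFAP5. The groups overlapped, and the log2 difference was -0.07 ± 0.10 (adjusted p = 0.673). Of 4 other tested ARNT probe sets 1 was called higher (0.64 ± 0.19, adjusted p = 0.0289), at signals of 116 to 245.

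None of the 4 tested oxygen sensing genes was called by limma (1, EGLN1, had an unadjusted p below 0.05). All 4 log2 differences were positive for the brightest probe set of each gene, but EGLN1 and HIF1AN had other tested probe sets with negative ones. EGLN1 encodes PHD2, the main prolyl hydroxylase of HIF alpha, and had signals of 1206, 1358 and 1467 in the controls and of 1456, 1708 and 1715 with MFAP5. The lowest MFAP5 signal lay just under the highest control signal. The log2 difference was 0.28 ± 0.10 (95% interval 0.06 to 0.49, adjusted p = 0.0652 in limma). EGLN1 was called in 4 of the 15 alternative settings, among them without control replicate 3 (adjusted p = 0.0369) and without MFAP5 replicate 1 (adjusted p = 0.0299). Across the 15 its log2 difference was as low as 0.11 and the limma adjusted p as high as 0.413.

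EGLN3 encodes PHD3, a prolyl hydroxylase whose own gene is hypoxia-induced, and had signals of 212, 203 and 277 in the controls and of 272, 322 and 249.8 with MFAP5. The groups overlapped (log2 difference 0.29 ± 0.17, adjusted p = 0.239). EGLN2, which encodes PHD1, had control signals of 33.4, 17.4 and 5.35, all under the brightest Bacillus spike-in probe set of their arrays, and signals of 3.14, 14.2 and 37.1 with MFAP5. It did not pass the brightness filter, and no fold is given.

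VHL, the substrate receptor of the ligase, had signals of 582, 534 and 477 in the controls and of 619, 621 and 614 with MFAP5. The groups did not overlap, but the log2 difference of 0.22 ± 0.10 was not called (adjusted p = 0.147). HIF1AN encodes FIH, the asparaginyl hydroxylase that blocks coactivator binding, and its signals were 1259, 1155 and 1147 in the controls and 1360.2, 1269 and 1309 with MFAP5. These did not overlap either (0.15 ± 0.08, adjusted p = 0.199). A second HIF1AN probe set moved the other way and was called lower (-0.54 ± 0.11, adjusted p = 0.00504), from signals of 946 to 1069 in the controls to 625 to 797 with MFAP5, so the direction for HIF1AN depended on the probe set.

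The glucose transporter SLC2A1 (GLUT1), the main carrier of glucose into many tumour cells, had signals of 1395, 1476 and 1269.6 in the controls and of 2565, 2377 and 2035 with MFAP5. All MFAP5 signals lay above all control signals. The log2 difference was 0.75 ± 0.10, a 1.68-fold rise (adjusted p = 0.00046). SLC2A3 (GLUT3), a transporter of high affinity, had signals of 3.61 to 16.1 in the controls and of 12.4 to 28.0 with MFAP5 and did not pass the brightness filter. The lactate transporters SLC16A1 and SLC16A3 and the carbonic anhydrase CA9 had no probe set annotated to that symbol alone and were not analysed here.

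Glycolysis opens with hexokinase, which traps glucose in the cell as glucose 6-phosphate. HK2, the inducible hexokinase, had signals of 1955, 1881 and 1954 in the controls and of 2671, 3051 and 2937 with MFAP5. Without overlap between the groups, it rose 1.49-fold (log2 difference 0.58 ± 0.07, adjusted p = 0.000336). The other 2 tested HK2 probe sets did not rise (-0.50 ± 0.21 and 0.01 ± 0.16, neither called), and the mean of all HK2 probe sets gave 0.03 (adjusted p = 0.812).

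HK1, the hexokinase of most tissues, had signals of 3124, 3226 and 3000.8 in the controls and of 3809, 3478 and 3608 with MFAP5. Its rise was small (1.16-fold, log2 difference 0.22 ± 0.07, adjusted p = 0.0337), and the call was lost whichever of the 6 arrays was left out (adjusted p from 0.0583 to 0.0948). The log2 signal difference of HK2 from HK1 moved from -0.69 ± 0.08 (SD, n = 3) to -0.33 ± 0.16 without overlap, a change of 0.36 that turned to -0.19 with the mean of all probe sets.

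GPI, the isomerase that makes fructose 6-phosphate, had signals of 13035, 13356 and 11509.7 in the controls and of 12894, 11446 and 11326 with MFAP5. Its groups overlapped (log2 difference -0.09 ± 0.08, adjusted p = 0.448). The 3 phosphofructokinase genes encode the enzyme of the committed step of glycolysis and did not share a direction. PFKP, the platelet type, rose 1.20-fold (0.26 ± 0.08, adjusted p = 0.0411) from signals of 2584, 2727 and 2419.6 to signals of 3007, 3414 and 2864, which lay above all control signals.

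The PFKP call was lost when any array but MFAP5 replicate 3 was left out (adjusted p from 0.0536 to 0.172). PFKM, the muscle type, had signals of 4346, 4875 and 4441 in the controls and of 4218, 3695 and 4165 with MFAP5. It was the single tested member whose MFAP5 signals all lay below the controls, with a log2 difference of -0.18 ± 0.08 (95% interval -0.35 to -0.01) that was not called (adjusted p = 0.113). PFKL, the liver type, had signals of 871, 1040.2 and 775 in the controls and of 1018, 1001 and 973 with MFAP5, and the groups overlapped (0.17 ± 0.11, adjusted p = 0.301).

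The PFKFB enzymes make and break fructose 2,6-bisphosphate, the strongest activator of phosphofructokinase. PFKFB4 had signals of 343, 335 and 399.8 in the controls and of 822, 931 and 679.99 with MFAP5. Its lowest MFAP5 signal lay well above its highest control signal. The log2 difference was 1.17 ± 0.13, a 2.25-fold rise (adjusted p = 0.000207).

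PFKFB2 rose 1.26-fold (0.33 ± 0.10, adjusted p = 0.0325) from signals of 508, 592 and 554 to signals of 728, 678 and 676, without overlap. The call was lost when any array but control replicate 2 was left out (adjusted p from 0.0561 to 0.111), while a second PFKFB2 probe set was also called higher (0.68 ± 0.20, adjusted p = 0.0321). PFKFB3, often described as the hypoxia-induced isoform with the highest kinase activity, had signals of 613, 542 and 658 in the controls and of 439, 517 and 696 with MFAP5. The MFAP5 samples enclosed the control range, and PFKFB3 was not called (-0.16 ± 0.16, 95% interval -0.51 to 0.20, adjusted p = 0.515).

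The log2 signal difference of PFKFB4 from PFKFB3 went from -0.75 ± 0.08 (SD, n = 3) in the controls to 0.57 ± 0.53 with MFAP5, and the groups did not overlap. That of PFKFB4 from PFKFB2 went from -0.62 ± 0.18 to 0.21 ± 0.23, again without overlap. That of PFKFB3 from PFKFB2 overlapped (change of -0.49, exact permutation test, two-sided p = 0.2).

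Aldolase splits fructose 1,6-bisphosphate. ALDOC, the brain type aldolase, had signals of 405, 406 and 326 in the controls and of 809, 674 and 720.3 with MFAP5. Far apart, these groups gave a log2 difference of 0.96 ± 0.12 and a 1.94-fold rise (adjusted p = 0.00044). ALDOA, the aldolase of muscle and of most proliferating cells, had signals of 20949, 21137 and 17735 in the controls and of 23852, 22654 and 22043 with MFAP5. Its MFAP5 signals were all higher, but the log2 difference of 0.20 ± 0.08 was not called (adjusted p = 0.0838). A second ALDOA probe set, at a difference of 0.27 ± 0.08, was called higher (adjusted p = 0.0376).

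**Figure D4:**
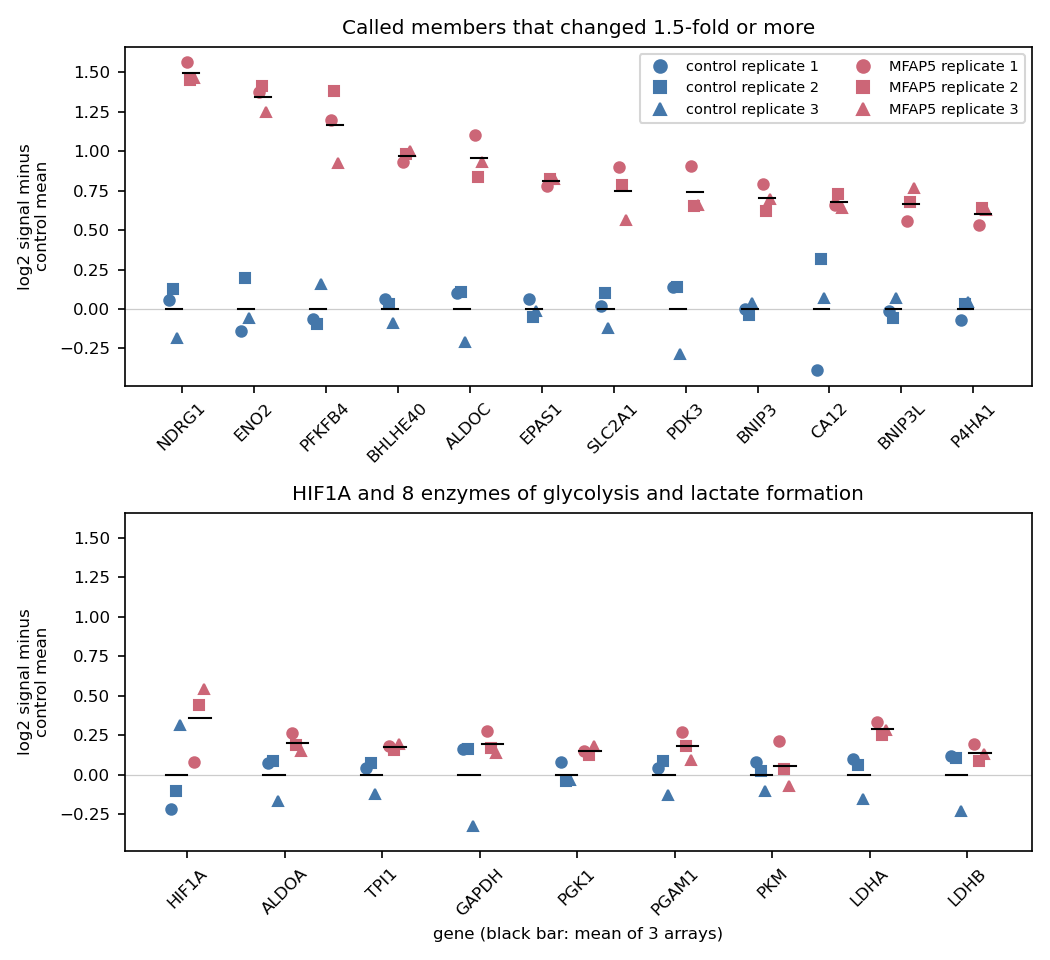
Log2 signal minus the gene's control mean (y axis) on each of the 6 arrays, 3 control (blue) and 3 MFAP5 (red); each point is 1 array, shapes give the replicate number and black bars the means of 3 arrays. The upper panel shows the 12 called members that changed by 1.5-fold or more, with no overlap between groups; the lower panel shows HIF1A and 8 enzymes, where differences are small and control replicate 3 often lies lowest.

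Most enzymes from triosephosphate isomerase to pyruvate kinase had small positive differences that were not called. GAPDH, the oxidative step and a common reference gene, had signals of 31687, 31743 and 22598 in the controls and of 34345, 31780.4 and 31204 with MFAP5. Control replicate 3 stood apart from the other 5 arrays. The log2 difference was 0.19 ± 0.12 (adjusted p = 0.262), and without control replicate 3 it was 0.03 (adjusted p = 0.686).

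TPI1, which interconverts the triose phosphates, had a log2 difference of 0.18 ± 0.07 (adjusted p = 0.077). PGK1 and PGAM1, the kinase and the mutase acting on phosphoglycerate, had differences of 0.15 ± 0.06 (adjusted p = 0.0879) and 0.18 ± 0.07 (adjusted p = 0.104). In these 3 the MFAP5 signals all lay above the control signals without being called. PKM, pyruvate kinase, had signals of 6526 to 7434 in the controls and of 6672 to 8120.2 with MFAP5 and overlapped (0.06 ± 0.08, 95% interval -0.13 to 0.24, adjusted p = 0.658).

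The enolases, which make phosphoenolpyruvate, were both called. ENO2, the neuronal type (gamma) enolase, had signals of 279, 351 and 295 in the controls and of 794, 816 and 728 with MFAP5. No other glycolytic enzyme among the members had as large a difference, 1.34 ± 0.12 on the log2 scale, a 2.54-fold rise (adjusted p = 4.05e-05). ENO1, the widely expressed alpha enolase, had signals of 11649, 11825 and 11123 in the controls and of 13386, 13064 and 13309.9 with MFAP5.

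ENO1 rose 1.15-fold (0.20 ± 0.06, adjusted p = 0.0254). Its call was lost when any array but control replicate 3 was left out (adjusted p from 0.0507 to 0.0823). The other 2 tested ENO1 probe sets were not called (0.08 ± 0.10 and 0.07 ± 0.18), and the mean of all of them gave 0.12 (adjusted p = 0.284). On the log2 scale, the difference of ENO2 from ENO1 moved from -5.23 ± 0.16 (SD, n = 3) to -4.09 ± 0.10, a 2.21-fold change of the ratio between the 2 probe sets. The difference of ALDOC from ALDOA moved from -5.72 ± 0.04 to -4.96 ± 0.10, a 1.69-fold change of ratio.

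Across the 13 isoenzyme or paralog pairs compared, the groups did not overlap in 7: PFKFB4 with PFKFB3, ENO2 with ENO1, PFKFB4 with PFKFB2, ALDOC with ALDOA, HK2 with HK1, PFKM with PFKL and LDHB with LDHA. Each of these reached p = 0.1, the smallest that an exact permutation test of 3 samples against 3 can give (two-sided), and an adjusted p of 0.186. Of all genes tested, taken singly, 22.3% had all MFAP5 signals above the control signals and 23.6% all below. No such share was counted for pairs of other genes, so the count of 7 is not read as particular to these pairs. The changes ran from a gain of 1.32 (log2) for PFKFB4 over PFKFB3 to values of -0.34 for PFKM over PFKL and -0.15 for LDHB over LDHA. Within a pair the scaling of the arrays cancels, so these values are the same under both centrings.

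**Figure D5:**
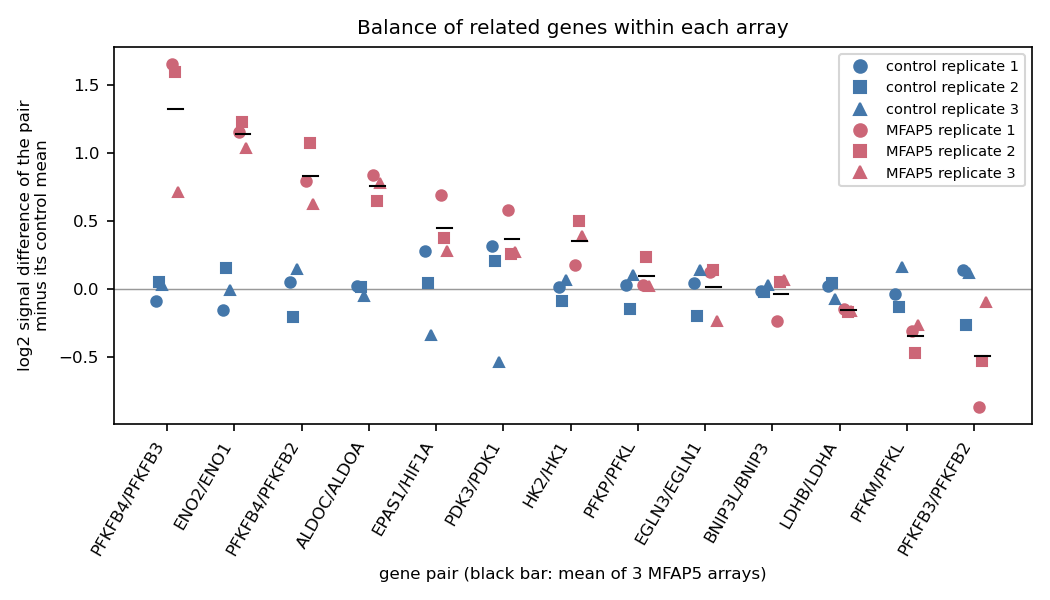
Log2 signal difference within each of the 13 pairs of related members, minus the pair's control mean (y axis), for 3 control (blue) and 3 MFAP5 (red) arrays; black bars are the means of the 3 MFAP5 arrays. Groups are apart in 7 pairs, with the largest gaps in PFKFB4 with PFKFB3 (change 1.32) and ENO2 with ENO1 (change 1.14), and overlap in 6. Of all single genes tested, 22.3% lay wholly above the controls and 23.6% wholly below.

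Pyruvate is reduced to lactate by lactate dehydrogenase or enters the mitochondrion, where the PDK kinases switch off pyruvate dehydrogenase. LDHA, the subunit favouring lactate formation, had signals of 27912, 27197 and 23446 in the controls and of 32904, 31096 and 31834 with MFAP5. All MFAP5 signals were higher, and the rise was 1.22-fold (0.29 ± 0.07, adjusted p = 0.0166). It was not called without MFAP5 replicate 1 (adjusted p = 0.0553) or without MFAP5 replicate 3 (adjusted p = 0.0514). LDHB, the other subunit, had signals of 36797, 36484 and 28893 in the controls and of 38703, 35909 and 37073 with MFAP5, which overlapped (0.14 ± 0.09, adjusted p = 0.308).

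PDK3 had signals of 1045, 1043 and 778 in the controls and of 1772, 1491 and 1497 with MFAP5. The groups were apart, and the rise was 1.67-fold (0.74 ± 0.12, adjusted p = 0.002). Among the other 4 tested PDK3 probe sets 1 was also called higher (0.51 ± 0.15, adjusted p = 0.0305) and 3 were not called, and the mean of all of them gave 0.16 (adjusted p = 0.259). PDK1, a kinase known as a HIF-1 target, had signals of 2041, 2207 and 2742 in the controls and of 2894, 3047 and 3022 with MFAP5.

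PDK1 rose 1.29-fold (0.37 ± 0.10, adjusted p = 0.0235) without overlap. The call was lost without control replicate 1 (adjusted p = 0.0852), control replicate 2 (0.0795), MFAP5 replicate 2 (0.0805) or MFAP5 replicate 3 (0.0631). A second tested PDK1 probe set was not called (0.01 ± 0.12), and the mean of both gave 0.19 (adjusted p = 0.0809). The log2 difference between PDK3 and PDK1 overlapped between the groups (change 0.37, exact permutation test, two-sided p = 0.3).

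The other hypoxia-induced genes held the member with the largest rise, and 7 of the 8 tested were called. NDRG1, a stress-responsive protein of epithelial cells, had signals of 4599, 4810.02 and 3880.3 in the controls and of 13032, 12083 and 12157 with MFAP5. Nowhere among the members were the groups further apart (log2 difference 1.49 ± 0.08, a 2.81-fold rise, adjusted p = 1.97e-06). BHLHE40, a transcriptional repressor of the clock and hypoxia pathways, had signals of 2459.6, 2405 and 2212 in the controls and of 4495, 4666 and 4711 with MFAP5.

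BHLHE40 rose 1.96-fold (0.97 ± 0.07, adjusted p = 6.91e-06), and its second probe set was also called higher (0.66 ± 0.19, adjusted p = 0.0317). BNIP3 and BNIP3L encode related receptors that direct mitochondria to autophagy, and both rose. BNIP3 had signals of 6107, 5948 and 6282 in the controls and of 10593, 9391 and 9896 with MFAP5, a 1.63-fold rise (0.70 ± 0.06, adjusted p = 4.76e-05). BNIP3L had signals of 2053, 1997 and 2179.9 in the controls and of 3057, 3316 and 3527 with MFAP5, a 1.59-fold rise (0.67 ± 0.07, adjusted p = 0.000181).

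Both genes had a second probe set, and these were called higher as well (0.70 ± 0.07 for BNIP3 and 0.91 ± 0.09 for BNIP3L). The log2 difference between BNIP3L and BNIP3 was -1.56 ± 0.03 (SD, n = 3) in the controls and -1.59 ± 0.17 with MFAP5, and it overlapped (change of -0.04, exact permutation test, two-sided p = 1). P4HA1, a subunit of the collagen prolyl hydroxylase, had signals of 2692, 2886 and 2913 in the controls and of 4096, 4399.97 and 4369 with MFAP5. It rose 1.52-fold without overlap (0.60 ± 0.07, adjusted p = 0.000153).

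CA12, a carbonic anhydrase of the cell surface, had signals of 123, 200.4 and 169 in the controls and of 254, 266 and 251 with MFAP5. It rose 1.60-fold without overlap (0.68 ± 0.19, adjusted p = 0.027). The call was lost without control replicate 1 (0.48, adjusted p = 0.0789) and without MFAP5 replicate 1, 2 or 3 (adjusted p from 0.0582 to 0.0859). Both other tested CA12 probe sets were called higher (0.82 ± 0.19 and 1.15 ± 0.26).

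ANKRD37, an ankyrin repeat protein whose gene is a known HIF-1 target, rose 1.27-fold (0.34 ± 0.10, adjusted p = 0.0297) from signals of 503, 498 and 454 to signals of 607, 592 and 649. It was not called whichever of the 6 arrays was left out (adjusted p from 0.055 to 0.0984). KDM3A, a histone H3 lysine 9 demethylase that is also a known hypoxia target, had signals of 2060.2, 1948 and 2140.1 in the controls and of 2005, 2034 and 1912 with MFAP5. The groups overlapped, and it was the single tested gene of this role that was not called (-0.05 ± 0.07, 95% interval -0.20 to 0.11, adjusted p = 0.671).

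Control replicate 3 was the lowest of the 6 arrays for 19 of the 38 tested members, control replicates 1 and 2 for 8 and 7, and the MFAP5 arrays for 1, 1 and 2. The same count was not made over all genes, so it is not read as particular to the members. The median signal over all probe sets was also lowest on control replicate 3 (53.6, against 55.4 to 61.4 on the others). Without control replicate 3, 18 members were called higher, beside 14.4% of all genes. The trimmed mean signal was 500.07 on each array, log2 signals correlated at 0.984 to 0.988 within groups and 0.967 to 0.971 between them, and the 3' GAPDH control probe set against its 5' counterpart, a measure of RNA quality, gave log2 ratios of -0.20 to -0.06 in the controls and of -0.13 to -0.06 with MFAP5. The part of control replicate 3 in the small differences of the other enzymes was not tested beyond leaving it out.

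Probe sets also differed in how firmly they named a gene. For 21 tested members at least 1 other probe set was tested, 40 in all, of which 10 were called higher and 1 lower (that of HIF1AN). Among the called members 10 had another tested probe set, 6 of them with one called in the same direction and 0 with one called in the opposite direction. The probe sets of GAPDH, ALDOA, TPI1, PFKL, LDHB and CA12 carry the suffix _x. It marks a manufacturer's class that can bind transcripts of other genes, so their values are less certain. Those of many other members, among them NDRG1, SLC2A1, BHLHE40, BNIP3L, P4HA1 and LDHA, carry the suffix _s. Whether these bind 1 gene alone was not checked, so they are not taken as free of this limit.

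Genes of the same pathways outside the 43 were read from lists chosen by function, also with earlier results of these data known. Of 13 tested further components of the HIF pathway (coactivators, ligase subunits, other PAS proteins), 1 was called, against 14.6% of all genes called higher. This was EP300, a coactivator of HIF, which rose 1.34-fold (0.42 ± 0.12, adjusted p = 0.0272), a call lost under both centrings and when control replicate 1 or 2 or MFAP5 replicate 2 or 3 was left out (adjusted p of 0.0682 or more). The list's median log2 difference was 0.06.

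Of 27 tested further hypoxia response genes 11 rose and 2 fell, beside 14.6% and 15.3% of all genes, with a median log2 difference of 0.17 beside -0.01 over all genes. The angiogenic factor VEGFA had signals of 4876, 4471 and 4583 in the controls and of 8879, 9639 and 10442 with MFAP5, a 2.08-fold rise (1.05 ± 0.07, adjusted p = 7.48e-06). ADM, a vasodilator peptide, rose 3.21-fold, STC2, a secreted glycoprotein of the stress response, 2.68-fold (1.42 ± 0.12), and CXCR4, a chemokine receptor, 2.08-fold (1.06 ± 0.23) at signals of 66.3 to 199.3.

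The 2 genes of that list that fell, named after their values were seen, were WSB1, a ubiquitin ligase subunit (-0.47 ± 0.06, adjusted p = 0.000558), and DDIT4, an inhibitor of mTORC1 (-0.49 ± 0.06, adjusted p = 0.000246). DDIT4 signals were 5549, 5437 and 5616 in the controls and 4041, 3909.99 and 3854 with MFAP5, without overlap. The WSB1 call was lost when its probe sets were averaged (-0.20, adjusted p = 0.193).

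Of 19 tested other genes of glucose uptake, glycolysis and glycogen, 5 rose and 1 fell, beside 14.6% and 15.3% of all genes, with a median log2 difference of 0.10. Among them were carriers of the glucose transporter family: SLC2A10 rose 1.96-fold (0.97 ± 0.12, adjusted p = 0.00033), SLC2A12 1.91-fold (0.93 ± 0.14, adjusted p = 0.000996) and SLC2A6 1.40-fold (0.48 ± 0.09, adjusted p = 0.00371). TIGAR, a fructose bisphosphatase that slows glycolysis, rose 1.28-fold (0.36 ± 0.09, adjusted p = 0.0183). UGP2, which makes UDP-glucose, rose 1.15-fold (0.21 ± 0.06, adjusted p = 0.03), and PGM2, a phosphopentomutase, fell by 0.32 ± 0.08 on the log2 scale (adjusted p = 0.017), both named after their values were seen. This list's count of rises was 3 without control replicate 1 and 3 without MFAP5 replicate 2, where TIGAR and UGP2 lost the call, and PGM2 lost it without MFAP5 replicate 1 (adjusted p = 0.0514) and without MFAP5 replicate 2 (adjusted p = 0.0649).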

How the data were processed

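For 3 MFAP5 and 3 control samples, the values that the authors deposited are MAS5 signals, a linear intensity for each probe set. MAS5 is named, without a version, in the submitters' processing notes. MAS5 scales each array to a common trimmed mean (500.07 here, 2% left out at each end), so a shift of most transcripts together would be hidden, and dim signals are noisy on the log scale. Samples were grouped by title. Per the labels the samples are separate, but nothing used here says they came from separate cultures, so p-values measure only the spread between these samples, and the number of arrays limits precision.

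Signals were taken to log2. The 62 Affymetrix controls and probe sets with a mean below the median (signal 53.7) were left out, and 27307 were tested with limma 3.58.1 in R 4.3.3 (lmFit, eBayes with intensity trend), with Benjamini-Hochberg adjustment over all of them. Genes were named through the platform annotation (41091 probe sets with 1 symbol, 1801 with several, 11721 with none). Pairs were tested with exact permutation tests. Signals on all arrays are given for the HIF subunits, the oxygen sensors, called members changed by 1.5-fold or more and at least 1 uncalled member of each step, and up to 4 called genes of each further list are named. The members and lists were chosen with earlier results of these data known. Promoter windows came from RefSeq (GRCh38.p14). Alternatives were other scalings, filters, variance models, probe set rules, a replicate block and each array left out. Same-numbered samples' deviations correlated at 0.09, -0.01 and 0.17, so the numbers were not taken to pair samples. The fit was checked on simulated data.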

Additional observations from a re-analysis of the deposited data

How the results depend on the processing

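Of 569 member values recomputed under the alternatives, 486 kept their side of the threshold, 69 lost the call and 14 gained it. The sign changed in 6 values, none of them called in either setting: HIF1AN (-0.28) and ARNT (0.10) with the mean of all probe sets, LDHB with quantile normalization (-0.03) and median centring, and PKM with median centring (-0.08) and without MFAP5 replicate 1 (-0.02). The 20 members called higher became 12 with arrays centred on their medians and 12 with arrays centred on the hybridisation controls, and they numbered 13 to 18 with each array left out in turn. The share of all genes called higher fell as well, from 14.6% to 9.15% and 7.49% under these centrings. It was 10.6% to 14.4% with each array left out. Members called lower, 0 as reported, became 2 with arrays centred on their medians. The members' median log2 difference of 0.28 became 0.14 with median centring, 0.23 with hybridisation control centring and 0.22 with the mean of all probe sets of a gene, and it ranged from 0.24 to 0.29 with each array left out. With the replicate block 24 members were called higher, beside 16.9% of all genes, and HIF1A (adjusted p = 0.00473) and EGLN1 (adjusted p = 0.0149) were among them. Of 194 pair values 5 moved by more than 1 SD, among them HK2 from HK1 (-0.19 with the mean of all probe sets). In the further lists, rises among the other glucose uptake, glycolysis and glycogen genes went from 5 to 3 under median centring and 2 under hybridisation control centring. Read by the 5' Affymetrix control probe set, an alternative chosen after seeing the data, GAPDH had a log2 difference of 0.11 and was not called. The smallest p of the pair tests is 0.1, and signals near the Bacillus controls (EGLN2, SLC2A3) allow no fold.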

Other observations

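Enzymes on the neighbouring routes of glucose carbon were not called higher. Of 7 tested pentose phosphate enzymes 0 rose and 3 fell (limma, adjusted p), beside 14.6% and 15.3% of all genes, and their median log2 difference was -0.09. The counts were the same at an unadjusted p below 0.05, where the share of all genes was not counted. TKT, transketolase, had signals of 23639, 23779 and 21419.8 in the controls and of 18892, 19089 and 18496 with MFAP5, without overlap (-0.28 ± 0.06, limma adjusted p = 0.00787). TALDO1, transaldolase, fell by 0.25 ± 0.07 (adjusted p = 0.0293) and PGD, the second dehydrogenase of the pathway, by 0.23 ± 0.06 (adjusted p = 0.019). TALDO1 was not called without control replicate 1 (adjusted p = 0.0996). Without control replicate 2 or MFAP5 replicate 2 or 3, 1 of the 3 was called.

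Of 12 tested genes of pyruvate dehydrogenase and of pyruvate entry into the mitochondrion, 0 rose and 2 fell by adjusted p. Beside 14.6% and 15.3% of all genes, the count of falls is near the background. At an unadjusted p below 0.05 the counts were 0 and 4, and the share of all genes there was not counted. The genes of this list had a median log2 difference of -0.08. DLAT, the acetyltransferase subunit, had signals of 2907, 2696 and 3208 in the controls and of 2076, 2432 and 2588 with MFAP5 (-0.31 ± 0.10, adjusted p = 0.0369). PDHA1, the catalytic subunit that the PDK kinases phosphorylate, had signals of 9943, 9929 and 8458 in the controls and of 8652, 7645 and 6945 with MFAP5, so its groups overlapped (-0.29 ± 0.09, adjusted p = 0.0453). Of these 2 genes, 0 were called without control replicate 1 or MFAP5 replicate 2, with an adjusted p of 0.0856 and 0.0792 for DLAT and of 0.143 and 0.125 for PDHA1, and 1 was called when any one of the other arrays was left out.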
